A study of Mus musculus with 6 samples.

Results

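The calpain system of the mouse lens was described here through 10 genes: the calpains Capn1, Capn2, Capn3, Capn5, Capn6, Capn7, Capn10 and Capn15, the small subunit Capns1, and Cast, which encodes the inhibitor calpastatin. Members were taken by name, as every non-control probe whose RefSeq transcript accession belongs to 1 of these genes. All 10 were on the array, among 20659 genes that could be named, with 13 probes of 39429. RNA came from lenses of mice aged 3 months. The knock-in group carried the W151C change, which puts cysteine in place of tryptophan at codon 151 of βB2-crystallin, an abundant structural protein of the lens encoded by Crybb2. The change was introduced into the mouse gene by CRISPR/Cas9 editing, and the other group was wild type. The sources used here do not give the strain, the number of edited alleles, or whether an array held 1 animal or a pool. Each genotype had 3 arrays, numbered 1, 2 and 4 in knock-in and 1, 2 and 3 in wild type. The sources used here do not say whether a probe for Crybb2 covers the edited codon, so its signal does not check the labels.

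Calpains are cysteine proteases of the cytosol that are switched on by calcium and cut their substrates at few sites rather than digesting them. The classical enzymes, calpain 1 and calpain 2, are each a large catalytic subunit, from Capn1 or Capn2, bound to the common small subunit from Capns1. Calpastatin binds and blocks these dimers. In rodent lenses calpain 2 and lens splice forms of Capn3 cut crystallins and cytoskeletal proteins when calcium rises, and calpain activity has long been studied in rodent cataract.

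Each array was a single-colour scan of Cy3-labelled RNA. Values below are log2 signals minus the 75th percentile of the same array, so 0 is the signal that 75% of spots lie below, and a difference of 1 is 2-fold. A probe was tested if it was well above background on all arrays of at least 1 genotype. The 75th percentile signal was between 120 and 201 on 5 arrays and 698 on wild type 3, and the share of spots well above background ran from 45.5% to 58.4%. The 3 knock-in arrays shared 1 scan, wild type 1 and 2 another scan of the same day, and wild type 3 was scanned on another day. No scan held both genotypes, so scan and genotype cannot be told apart. Wild type 3 stood apart from the other wild type arrays (r of 0.966 and 0.959 over tested probes, against 0.996 between those), and results are given with and without it. Lens fibre genes were present: 11 of 12 listed fibre markers had a probe and all 11 were tested. The number of arrays limits the precision.

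In the knock-in lenses the transcript of the inhibitor was higher: Cast rose 1.92-fold. The small subunit Capns1 was higher on both of its probes, of which 1 passed the test, while the catalytic subunit Capn2 differed by 1.24-fold and did not pass. Capn1, Capn5 and Capn7 showed no difference beyond the spread between arrays, Capn10 and Capn15 had lower means that missed the threshold, and Capn3 and Capn6 were at or near background. Taking the brightest probe of each gene, 1 of 8 tested members was called (limma, Benjamini-Hochberg adjusted p under 0.05 over 21076 probes), against 24.2% of the 12785 genes tested. Of the 9 tested member probes, 2 were called, both higher, against 23.6% of all probes (10.8% higher and 12.8% lower). In 4 of the 9 probes the genotypes did not overlap, against 44.6% of all probes: 3 were higher in knock-in, against 20.5%, and 1 was lower, against 24.1%. The members thus did not stand out from the array as a whole by how many of them differed. Within the shared scan day, which leaves out wild type 3, the called members were 4 (Capns1, Cast, Capn10 and Capn15), against 43.9% of all probes. With scan as a random block limma called 0 members, of which 1 had an unadjusted p under 0.05, against 3.17% of all probes called. Without knock-in 2 or wild type 1 none was called, and without knock-in 4 the called members were 2, Cast and Capn10. The median difference was -0.02 over the 8 members and -0.04 over all genes.

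**Figure D1:**
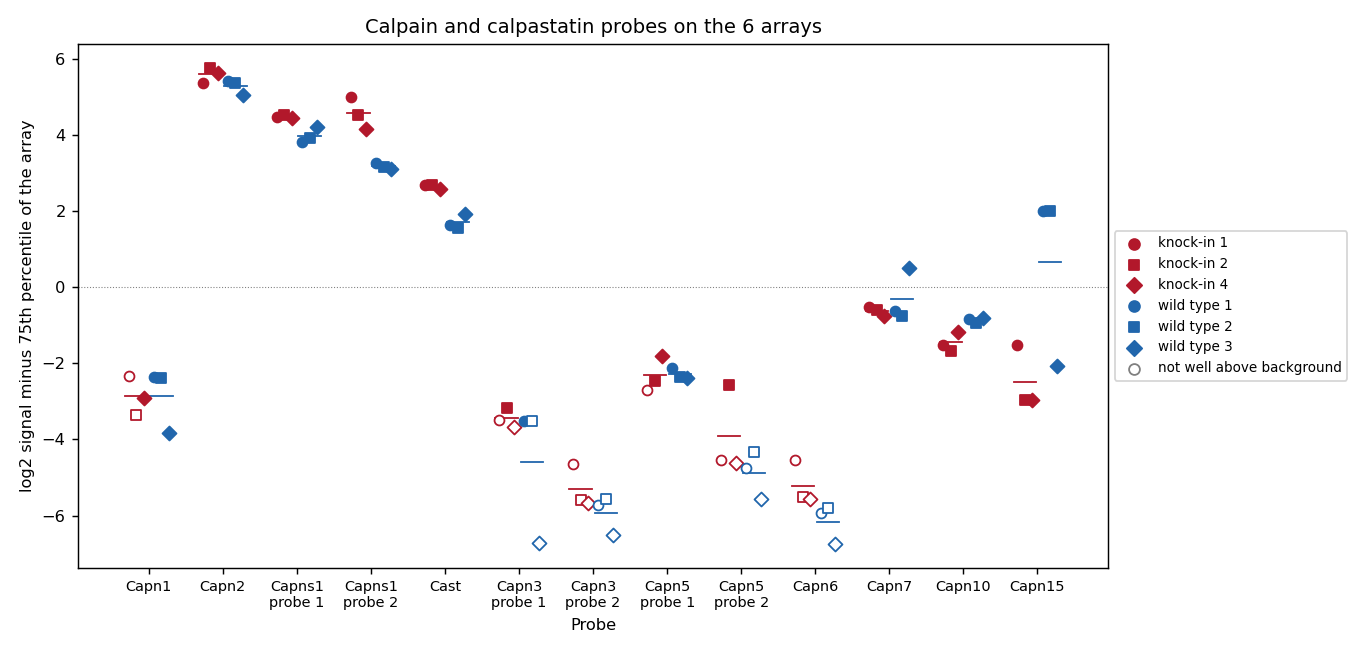
Log2 signal relative to the array's 75th percentile (y axis) for the 13 member probes (x axis, probe 1 being the brighter of a pair) on each of 6 arrays. Red is knock-in, blue wild type, lines are group means, and open symbols are spots not well above background. The knock-in arrays lie above every wild type array for Cast and both Capns1 probes. For Capn15, wild type 3 at -2.07 lies far below the other wild type arrays at 2.00 and 2.01.

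Calpastatin, the inhibitor, was measured by 1 probe that was well above background on every array. Cast stood at 2.69, 2.67 and 2.57 on knock-in arrays 1, 2 and 4 and at 1.64, 1.55 and 1.92 on wild type arrays 1, 2 and 3. The groups did not overlap, and the lowest knock-in array lay above the highest wild type array, wild type 3. The means were 2.64 ± 0.06 (SD, n = 3) and 1.70 ± 0.19 (SD, n = 3). Cast rose by 0.94 (SE 0.17, 95% interval 0.54 to 1.34; limma adjusted p = 0.00991). Without wild type 3 it rose by 1.05 (adjusted p = 0.00216). The call was lost with scan as a random block (0.90, adjusted p = 0.139), without knock-in 2 (adjusted p = 0.0563) and without wild type 1 (adjusted p = 0.0548). In bulk tissue a change in the share of cells that express a gene and a change in RNA per cell cannot be told apart.

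The small regulatory subunit, which stabilises the calpain 1 and calpain 2 dimers, was measured by a pair of probes that disagreed on the size of the difference. On the brighter probe Capns1 stood at 4.48, 4.53 and 4.43 on the knock-in arrays and at 3.82, 3.92 and 4.21 on the wild type arrays. The means were 4.48 ± 0.05 and 3.98 ± 0.21 (SD, n = 3 each). Their difference, 0.49 (SE 0.17, 95% interval 0.09 to 0.90, limma adjusted p = 0.0776), missed the threshold. The other probe read 5.0, 4.52 and 4.15 on the knock-in arrays, a wide range, and 3.25, 3.16 and 3.11 in wild type. That probe gave a rise of 1.38 (SE 0.24, adjusted p = 0.00812), or 2.61-fold. Neither probe's groups overlapped, but the wild type spread lay mainly in array 3 on the first and the knock-in spread was the larger on the second. Within the shared scan day both passed, at 0.61 (adjusted p = 0.0123) and 1.35 (adjusted p = 0.00773). With scan as a random block neither did (adjusted p = 0.43 and 0.148). The sources used here do not say which parts of the transcript the probes read. Markers of other cells went in both directions. Of 7 lens epithelium markers tested, 1 rose (Pdpn, by 1.55) and 2 fell (Aqp5 by 1.66 and Foxe3 by 1.11), with a median of -0.38, against 12.4% of genes higher and 11.8% lower. Their sum was 50.8 to 57.3 on knock-in and 34.3 to 44.3 on wild type arrays, in units of the array's 75th percentile signal. Without Pdpn, the brightest, the order turned, to 13.1 to 14.0 against 20.5 to 30.2. These marker genes were singled out after their values were seen. Foxe3 was well above background on all 3 wild type and 2 knock-in arrays. It entered the test through the wild type arrays, where it is high, so its count as a fall supports nothing. Fibroblast and vessel markers rose for 2 of 4 tested (7 listed, Cdh5 not well above background anywhere). The rises were those of Col1a1 (5.06) and Col1a2 (3.05), while Pecam1 (-0.41) and Pdgfra (-0.07) were not called. The list summed to 7.90 to 17.1 on knock-in against 2.88 to 4.06 on wild type arrays. Of the tested markers of retina (2 of 6 listed), ciliary body and iris (4 of 5) and cornea (2 of 3), limma called none. Blood markers rose for 1 of 2 tested, with Hbb-bs and Alas2 not well above background on any array. The gene called, Hbb-bt, was well above background on all 3 knock-in and 2 wild type arrays. It entered the test through the knock-in arrays, where it is high, so its count as a rise supports nothing. The part of these cells in the Cast and Capns1 values was not tested.

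Capn2, the catalytic subunit of calpain 2, was a bright probe with little difference between genotypes. It stood at 5.37, 5.76 and 5.62 on the knock-in arrays and at 5.42, 5.37 and 5.05 on the wild type arrays. Knock-in 1 and wild type 2 had the same rounded value, so the groups overlapped. The difference was 0.30 (SE 0.19, 95% interval -0.14 to 0.75, adjusted p = 0.277). After quantile normalization it was 0.64 and passed (adjusted p = 0.0467).

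Capn1, the catalytic subunit of calpain 1, was dim and entered the test through the wild type arrays alone. It was well above background on all 3 of these and on 1 knock-in array. Capn1 read -2.34, -3.35 and -2.91 in knock-in and -2.37, -2.38 and -3.83 in wild type. The difference was -0.01 (SE 0.45, adjusted p = 0.99), with an interval from -1.06 to 1.05 that leaves room for a 2-fold change either way. Its sign changed between settings, from -0.49 without wild type 3 to 0.24 without wild type 1.

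**Figure D2:**
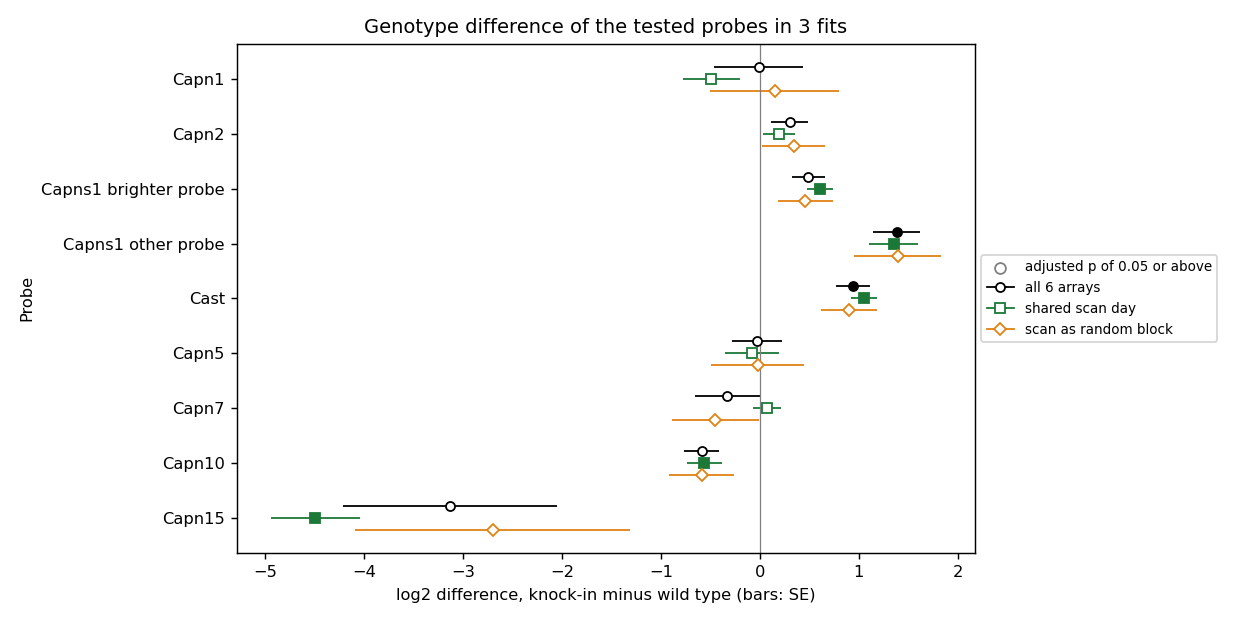
Log2 difference, knock-in minus wild type (x axis), with its SE for the 9 tested member probes (y axis) in the fit of all 6 arrays (black), within the shared scan day (green) and with scan as a random block (orange). Filled symbols have an adjusted p under 0.05. Cast is filled in the first pair of fits at 0.94 and 1.05 and open in the third at 0.90.

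Because protease and inhibitor were read on the same array, subtracting any constant from an array leaves their difference as it is; quantile normalization does not. A probe's brightness is not an amount, so only the change of this difference between genotypes can be read. Capn2 minus Cast was 2.69, 3.09 and 3.05 on the knock-in arrays and 3.78, 3.82 and 3.13 on the wild type arrays. Every knock-in array was lower, though knock-in 2 and wild type 3 were close. The change was -0.63 (exact permutation test, two-sided, p = 0.1, the smallest that 3 against 3 arrays allow; adjusted p = 0.2 over 4 differences). Capns1 minus Cast on the brighter probe was 1.80, 1.86 and 1.85 in knock-in and 2.17, 2.37 and 2.29 in wild type. Its change of -0.44 had the same exact p of 0.1, and was 0.44 the other way on the other Capns1 probe (exact permutation p = 0.3). Averaged over both probes it was 0.00. Capn1 minus Cast changed by -0.95 (exact permutation p = 0.3), with wild type 3 among the knock-in values. Capn3 minus Cast changed by 0.20 (exact permutation p = 1), from a Capn3 probe that was well above background on only 1 array of each group. After quantile normalization, added after the data were seen, the changes were -0.34 for Capn2 (exact permutation p = 0.3), -0.31 for Capns1 (p = 0.1) and -1.05 for Capn1 (p = 0.2), so that of Capn2 was no longer free of overlap.

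**Figure D3:**
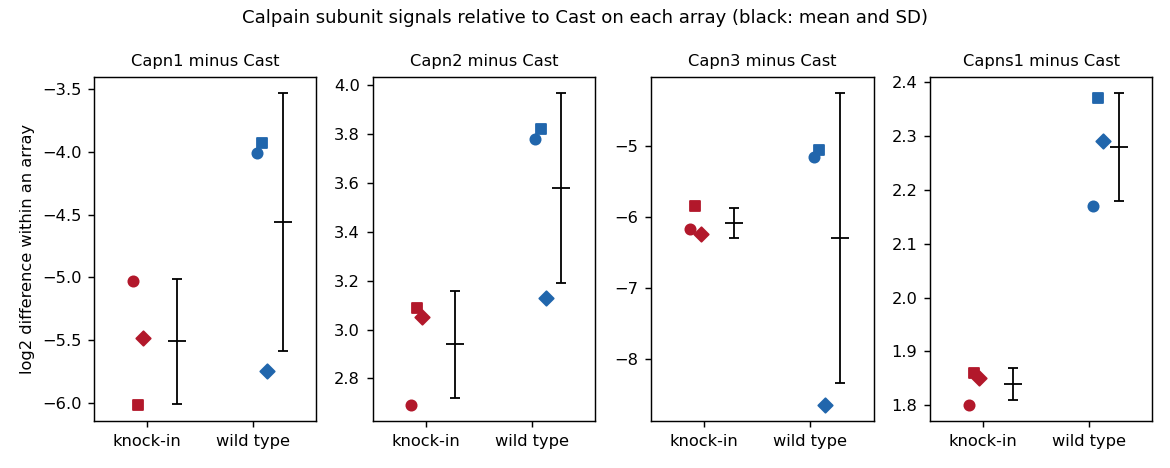
Signal of a calpain subunit minus that of Cast on the same array, in log2 units (y axis, a separate range in each panel), for knock-in (red) and wild type (blue) arrays, with 1 symbol shape for each array of a group. Black bars are the mean and SD. Capn2 and Capns1 are lower relative to Cast on every knock-in array, by 0.63 and 0.44 on average; the Capn3 probe was well above background on 1 array of each group.

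The promoter windows of Capns1, Capn2 and Cast are shown because Capns1 and Cast both had higher means while their partner Capn2 showed little difference. Each window runs from 250 bases before to 50 after a transcript start, 5′ to 3′ on the gene's strand, from RefSeq on build GRCm38.p6. Capns1 has 1 window, at chr7:30195104-30195403, and Capn2 1, at chr1:182517561-182517860, both on the minus strand. Cast has 4, of which the most upstream pair, at chr13:74808711-74809010 and chr13:74807911-74808210 on the minus strand, is printed. The sources used here do not say which start belongs to the transcript that the Cast probe reads. Capitals mark matches, on either strand, to 6 motifs: the GC box GGGCGG, the CCAAT box, the TATA box TATAAA, the AP-1 site TGANTCA, the ATF4 composite site TGATGNAA and the antioxidant element core TGACNNNGC.
Capns1: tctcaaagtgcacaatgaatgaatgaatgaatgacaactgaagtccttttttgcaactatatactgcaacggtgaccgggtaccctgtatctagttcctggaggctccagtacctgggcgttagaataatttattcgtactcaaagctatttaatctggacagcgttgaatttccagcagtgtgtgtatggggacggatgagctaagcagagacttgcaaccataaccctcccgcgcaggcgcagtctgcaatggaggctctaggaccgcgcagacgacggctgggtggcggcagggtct
Cast, first window: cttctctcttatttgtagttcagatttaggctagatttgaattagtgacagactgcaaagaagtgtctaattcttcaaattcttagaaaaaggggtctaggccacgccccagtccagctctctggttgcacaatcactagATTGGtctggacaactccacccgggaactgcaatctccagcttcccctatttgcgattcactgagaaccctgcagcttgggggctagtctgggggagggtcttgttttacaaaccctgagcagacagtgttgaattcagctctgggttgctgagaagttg
Cast, second window: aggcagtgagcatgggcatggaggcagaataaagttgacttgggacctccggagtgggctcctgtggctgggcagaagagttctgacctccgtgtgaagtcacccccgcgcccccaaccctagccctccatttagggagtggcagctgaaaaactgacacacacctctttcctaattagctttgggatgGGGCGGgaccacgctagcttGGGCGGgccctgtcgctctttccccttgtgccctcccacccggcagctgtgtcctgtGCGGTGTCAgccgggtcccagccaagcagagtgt
Capn2: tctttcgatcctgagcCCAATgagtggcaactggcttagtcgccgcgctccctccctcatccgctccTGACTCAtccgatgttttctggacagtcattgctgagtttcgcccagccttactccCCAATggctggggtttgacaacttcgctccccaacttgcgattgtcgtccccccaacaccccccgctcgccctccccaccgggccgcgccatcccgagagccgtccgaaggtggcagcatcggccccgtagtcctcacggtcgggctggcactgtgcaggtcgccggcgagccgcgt
The Capns1 window held none of the 6 motifs. The first Cast window held 1 CCAAT box, and the second held 2 GC boxes and 1 antioxidant element core. The Capn2 window held 2 CCAAT boxes and 1 AP-1 site. The windows of Capn1, whose probe was dim, are not printed; the first held 1 GC box and 2 CCAAT boxes and the second 3 GC boxes and 1 CCAAT box. Over all 32851 windows of this length, 35.7% held a GC box, 37.4% a CCAAT box, 13.6% a TATA box, 7.81% an AP-1 site, 3.97% an ATF4 composite site and 12.4% an antioxidant element core. CpG dinucleotides numbered 27 in the Capn2 window, 14 in that of Capns1, and 3 and 11 in the printed Cast windows, against a median of 7. These counts describe letters and not binding.

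Capn3, the family member whose lens splice forms are known in rodents, was at or near background on both probes and was not tested. The brighter probe stood at -3.48, -3.17 and -3.66 on the knock-in arrays and at -3.51, -3.51 and -6.72 on the wild type arrays. It was well above background on knock-in 2 and wild type 1, and the low mean of the wild type group came from array 3. The other probe lay between -6.51 and -4.64 and was not well above background on any array. The sources used here do not say whether either probe reads the lens splice forms, so these values are no measure of Capn3 in the lens as a whole. Full-length Capn3 is abundant in skeletal muscle. Of 10 muscle markers, Myh1, Myh4, Myl1 and Des were not well above background on any array, while Acta1 was on all 6. Of the 4 tested, 3 were called lower in knock-in (Acta1 by -1.29, Tnnc2 by -1.80, and Ckm, which no knock-in array read well above background), against 11.8% of genes. Tnnc2 was well above background on 2 knock-in and all 3 wild type arrays. Tnnc2 and Ckm entered the test through the wild type arrays, where they are high, so their counts as falls support nothing. The part of muscle RNA in the Capn3 values was not tested. The 10 markers summed to between 1.48 and 2.96 on knock-in and between 3.30 and 4.36 on wild type arrays, in units of the array's 75th percentile signal. Without Acta1, the brightest, the groups overlapped, at 0.524 to 1.18 on knock-in and 0.455 to 1.43 on wild type arrays.

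The remaining calpains lack the calmodulin-like domain through which the classical enzymes bind the small subunit. Capn15, the homologue of the fly gene small optic lobes, had the widest spread of any member. It stood at -1.53, -2.96 and -2.97 on the knock-in arrays and at 2.00, 2.01 and -2.07 on wild type arrays 1, 2 and 3. Wild type 3 lay among the knock-in arrays, so the groups overlapped, and all arrays were well above background. At -3.13 (SE 1.08, 95% interval -5.69 to -0.58, limma adjusted p = 0.0769) the change missed the threshold. Without wild type 3 it was -4.49 and passed (adjusted p = 0.00103), and arrays centred on their median gave -3.17 (adjusted p = 0.00444). Without wild type 1 or wild type 2 it was -2.46 and -2.45 (adjusted p = 0.194 and 0.185).

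Capn10, an atypical calpain whose human gene has been studied in type 2 diabetes, was lower in every knock-in array. It stood at -1.51, -1.67 and -1.18 on the knock-in arrays and at -0.84, -0.94 and -0.81 on the wild type arrays. The groups did not overlap, but the difference of -0.59 (SE 0.18, adjusted p = 0.0576) lay just past the threshold. It passed within the shared scan day at -0.56 (adjusted p = 0.0484) and without knock-in 4 at -0.72 (adjusted p = 0.0445), and was -0.59 (adjusted p = 0.39) with scan as a random block.

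Capn7, a calpain with microtubule-interacting and transport domains that bind the ESCRT machinery, was near the same level on 5 arrays. Capn7 read -0.53, -0.59 and -0.76 in knock-in and -0.63, -0.76 and 0.49 in wild type, and wild type 3 alone was high. The difference was -0.33 (SE 0.33, adjusted p = 0.504), and 0.07 (adjusted p = 0.736) without wild type 3. Capn5, a calpain that ends in C2 domains and is linked to an inherited human eye inflammation, was dim. Its brighter probe stood at -2.69, -2.47 and -1.81 in knock-in and at -2.13, -2.36 and -2.38 in wild type. That difference was -0.03 (SE 0.25, 95% interval -0.63 to 0.56, adjusted p = 0.938), on a probe well above background on all wild type and 2 knock-in arrays. Its dimmer probe, between -5.56 and -2.58, was well above background on knock-in 2 alone and was not tested. Capn6, a calpain without the catalytic cysteine that binds microtubules, was not well above background on any array, at -6.74 to -4.55.

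Of 8 further family genes, 6 had a probe and 2 were tested. Capn9, a calpain of the digestive tract, rose by 1.02 (SE 0.24, adjusted p = 0.022): the arrays read -1.77, -1.68 and -2.45 in knock-in and -2.99, -2.90 and -3.07 in wild type. All knock-in arrays were higher, and its other probe was not well above background on any array. The Capn9 call was lost with normexp background correction (0.53, adjusted p = 0.398), without a filter on dim probes (adjusted p = 0.0863), with scan as a random block (adjusted p = 0.262) and on leaving out any array but knock-in 4 and wild type 3 (adjusted p from 0.0593 to 0.0944). Capn11 had a difference of -0.47 (SE 0.24, adjusted p = 0.188), and -0.71 (adjusted p = 0.0105) without wild type 3. Capn8, Capn13 and Capns2 were not well above background on any array. Capn12, by its brighter probe, was so on 2 wild type arrays and no knock-in array, and was not tested.

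Transcripts of proteins reported as calpain substrates in lens had mostly negative differences. Of 16 genes tested, 6 fell, 0 rose by limma's adjusted p (1 at an unadjusted p under 0.05) and 15 had a negative difference, with a median of -0.57 against -0.04 over all genes; the background of falls was 11.8% of genes. With scan as a random block limma called 0 of the 16, of which 5 had an unadjusted p under 0.05. The number of falls was 1 without knock-in 2 and equally without either wild type 1 or wild type 2, and 2 without knock-in 4. Without knock-in 1 it was 3, and without wild type 3 it was 14, in a run that called 43.9% of all probes. In each of those last runs Tln1, talin 1, was called higher. Without a filter on dim probes 1 gene, Crybb1, was called. Many members are also fibre markers, a list in which 5 of 11 fell and all 11 had a negative difference, with a median of -0.95. The summed signal of the fibre list was between 938 and 1010 on knock-in arrays and between 1090 and 4140 on wild type arrays. The part of fibre content in the falls of substrate genes was not tested. The substrate list itself summed to 2750 to 3190 on knock-in and 2000 to 7120 on wild type arrays, so the groups overlapped. For several of the 16 genes wild type 3 lay below every knock-in array, as for Cryaa (7.07 against 8.54 to 8.83). Their negative differences thus came from wild type 1 and 2. Crybb1, a β-crystallin, fell by 1.51 (SE 0.21, adjusted p = 0.00388). Sptbn1 and Sptan1 encode the β and α spectrin chains of the membrane skeleton, cut by calpain in many tissues, and fell by 1.06 (adjusted p = 0.0353) and 0.62 (adjusted p = 0.0381). The other Sptbn1 probes were at -0.86 (adjusted p = 0.0372) and -0.39 (adjusted p = 0.167), and the call was lost after quantile normalization (-0.71, adjusted p = 0.164) and with normexp (-1.22, adjusted p = 0.0654). Sptan1 was -0.16 (adjusted p = 0.571) with normexp and missed the threshold with arrays centred on the median (-0.66, adjusted p = 0.119). Crybb1 did not pass with scan as a random block (adjusted p = 0.0615) and passed on leaving out each array in turn. Calls lost on leaving out 1 array were those of Sptbn1 (knock-in 2, wild type 1 or wild type 2, adjusted p from 0.0703 to 0.0975) and Sptan1 (any array but wild type 3, from 0.083 to 0.123).

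Other cysteine proteases, here caspases, cathepsins and Lgmn, included several large rises among cathepsins. Of 14 tested genes, 5 rose and 1 fell, with a median of 0.32, against backgrounds of 12.4% and 11.8% of genes. Ctsc, cathepsin C, stood at 2.88, 2.80 and 2.15 in knock-in and at -1.19, -1.29 and -1.38 in wild type, and rose by 3.90 (SE 0.23, adjusted p = 0.000183), or 14.9-fold. Ctsb, cathepsin B, rose by 1.55 (SE 0.19, adjusted p = 0.00247). Both also passed with scan as a random block (adjusted p = 0.0047 and 0.0328). No scan held both genotypes, so that fit does not separate genotype from scan. Ctss, cathepsin S of antigen-presenting cells, rose by 4.27 (SE 0.84, adjusted p = 0.0129). It was well above background on 2 wild type arrays, so that size is set partly against background. It thus entered the test through the knock-in arrays, where it is high, and its count as a rise supports nothing. Its call was lost with scan as a random block (adjusted p = 0.106) and without knock-in 1 (adjusted p = 0.0514), and with normexp it was 2.46 (adjusted p = 0.052). Leukocyte markers were mixed. Of 7 leukocyte markers tested (10 listed, 9 with a probe), 2 were called higher and 1 lower, against 12.4% and 11.8% of genes. The median was 0.79, with 4 positive and 3 negative differences. Tyrobp, an adaptor of myeloid receptors, was at least 5.11-fold higher (adjusted p = 0.00343), taken against the dimmest signal that is well above background, since no wild type array read it well above background. C1qc, a complement chain, rose by 4.39 (adjusted p = 0.0108) and C1qa had a difference of 2.02 (adjusted p = 0.0792), and 1 wild type array read each of them well above background. Tyrobp, C1qc and C1qa thus entered the test through the knock-in arrays, where they are high, so the called rises support nothing. Itgam was lower by its brightest probe (-1.65, adjusted p = 0.0425), but its other probes were at 0.05 and -0.65. C1qb, another complement chain, was well above background on every array and had a difference of -0.86 (limma adjusted p = 0.108). Fcer1g, also well above background on every array, was at -0.39 (limma adjusted p = 0.453). The markers summed to 9.22 to 18.3 on knock-in and 12.6 to 40.1 on wild type arrays, and without Itgam to 2.89 to 8.23 against 1.25 to 3.16. These markers, too, were singled out after their values were seen. The part of leukocytes, and of the fibroblasts and vessels described above, in the cathepsin values was not tested. The count of 6 called proteases was 3 with scan as a random block and ran from 3, without knock-in 1, to 7, without wild type 3.

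Inhibitors other than calpastatin were mixed: of 9 tested, 1 rose and 3 fell, with a median of 0.06, against 12.4% and 11.8% of genes. Birc7, an inhibitor of apoptosis protein, fell by 5.24 (SE 0.25, adjusted p = 8.16e-05). Cst6, the secreted cystatin E/M, fell by 1.22 (SE 0.18, adjusted p = 0.00497). Cstb, the cytosolic cystatin B that blocks cathepsins, rose by 0.93 (SE 0.22, adjusted p = 0.024). The probe that represents Cflar, a brake on caspase 8, fell by 0.71 (SE 0.18, adjusted p = 0.0312), but a second probe had a difference of 0.50 (SE 0.28, adjusted p = 0.225), so the gene's direction is uncertain. With scan as a random block Birc7 alone was called (adjusted p = 0.0022). Cstb missed the threshold on leaving out any array but knock-in 4 and wild type 3 (adjusted p from 0.0608 to 0.0954), and Cflar on leaving out any array but wild type 3 (from 0.0602 to 0.126). The count of 4 was 2 in those Cstb runs. With normexp it was 1, Birc7: Cst6 was at -0.23 (adjusted p = 0.573), Cflar at -0.04 (adjusted p = 0.942) and Cstb at 0.77 (adjusted p = 0.0549).

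Genes of calcium entry, storage and removal, which set the signal that activates calpains, changed in both directions. Of 26 tested, 3 rose and 4 fell, with a median of -0.17, a share near the background of 24.2%. Piezo1, a stretch-gated cation channel, stood at 4.89, 5.29 and 4.84 in knock-in and at 7.47, 7.80 and 6.14 in wild type, and fell by 2.13 (SE 0.42, adjusted p = 0.0133). Its relative Piezo2 rose by 2.09 (SE 0.47, adjusted p = 0.0204). Atp2b1, a plasma membrane calcium pump, rose by 1.69 (SE 0.28, adjusted p = 0.00741). Piezo2 and Atp2b1 were well above background on 1 wild type array each, so they entered the test through the knock-in arrays, where they are high, and their counts as rises support nothing. With probes above background on all arrays, 1 gene, Trpc1, was called higher and 5 lower. With normexp Atp2b1 was at 0.50 (adjusted p = 0.311) and Piezo2 at 0.63 (adjusted p = 0.145), and the 3 genes called were all lower. Calm3, a calmodulin gene, fell by 1.17 (SE 0.15, adjusted p = 0.0027) on its brighter probe and by 1.14 on the other. With scan as a random block limma called 0 of the 26, of which 3 higher and 3 lower genes had an unadjusted p under 0.05 (adjusted p = 0.0556 for Calm3, 0.11 for Atp2b1, 0.119 for Piezo1 and 0.181 for Piezo2). Leaving out 1 array ended the calls of Piezo1 (knock-in 1, adjusted p = 0.0536) and Piezo2 (any knock-in array or wild type 1, from 0.0558 to 0.0757). The count of 7 ran from 2, without knock-in 1, over 3 without knock-in 2 or wild type 1 and 4 without knock-in 4 or wild type 2, to 13 without wild type 3.

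**Figure D4:**
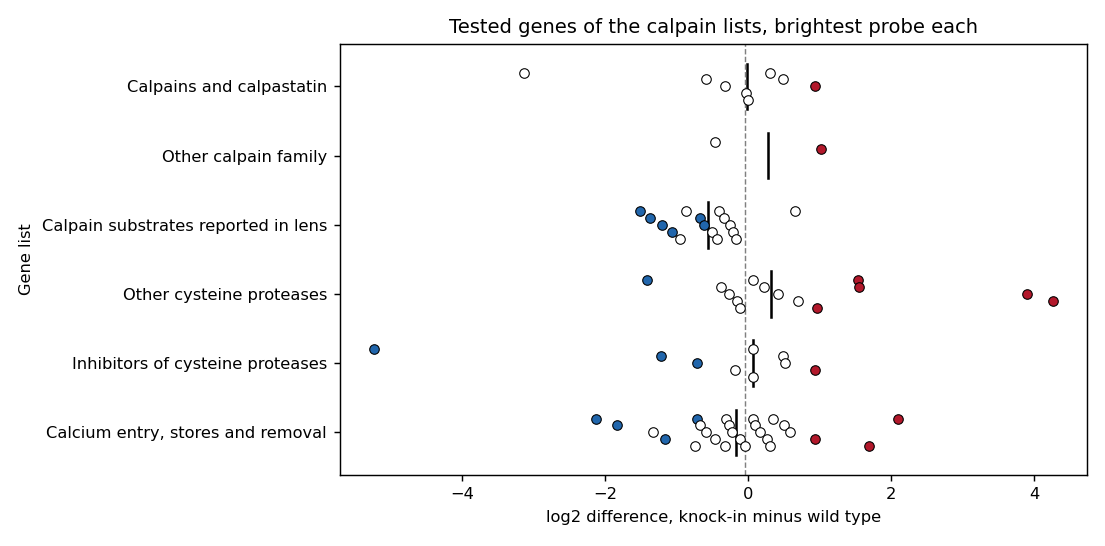
Log2 difference, knock-in minus wild type (x axis), of each tested gene in the 6 lists (y axis), by its brightest probe. Red and blue points were called higher and lower, open points were not called, black bars are list medians and the dashed line is the median over all genes at -0.04. Cast is the single filled point among the calpains and calpastatin, while 5 other cysteine proteases are red and 6 substrates are blue.

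The genes whose profile over the 6 arrays was most like that of Cast, by root mean square difference of centred log2 values among 12785 genes, were Lurap1l (0.024), Polg (0.033) and Gtf3c3 (0.037). For Capn2 they included Gata3 (0.039) and Tmem260 (0.048). For the dim Capn3 probe the nearest were Socs3 (0.261), Tnfrsf11b (0.456) and Atg9b (0.469), all much farther. With 6 arrays in 2 genotypes many genes share a shape, so these lists describe likeness only.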

How the data were processed

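The authors deposited spot intensities as the scanner software wrote them. The processed signal had its background subtracted array by array; the headers give Agilent Feature Extraction 11.0.1.1 as the software and the submitters' processing notes give 9.1. Median spot and background intensities, also deposited, served normexp. No scaling between arrays is named in the sources used here.

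From 43020 non-control spots, log2 processed signals minus each array's 75th percentile were averaged over a probe's spots, leaving out spots flagged as outliers. Probes counted as well above background where at least 50% of spots did. Limma 3.58.1 in R 4.3.3 (lmFit, eBayes, 4 residual degrees of freedom, Benjamini-Hochberg adjustment) compared knock-in with wild type over 21076 probes and was checked on simulated data; a gene is represented by its brightest tested probe. Accessions named 27234 probes through RefSeq, assembly GRCm38.p6; the array design refers to mm9, so no probe coordinates are given. Genes named are all members, up to 4 per list with the smallest p, and the 3 nearest profiles of Capn2, Capn3 and Cast. Normexp ran on median signals, since mean signals are not used here. Some genes that this rule takes are not reported here. Members and lists were chosen with earlier results of these data known. Alternatives covered scaling, background, filters, flags, weights, unit of the fit, scan, scan day, replicate number and each array left out.

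The series' design text speaks of biological replicates without naming animals, so p-values reflect variation among arrays, which may be partly technical. Among 399 probes with at least 10 spots, 39.8% separated wild type 1 from wild type 2 by over 2 standard errors, and each array was counted.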

Additional observations from a re-analysis of the deposited data

How the results depend on the processing

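The direction of Cast, Capn2, Capn10, Capn15 and both Capns1 probes was the same under every alternative run. Cast lay between 0.86 and 1.08 and was called in 14 of 18 alternatives; besides those given above it was lost without a filter on dim probes (adjusted p = 0.0588). The number of members called (Cast alone, 1) was 2 with arrays centred on the median (Cast, Capn15), 4 after quantile normalization (Capn2, Capns1, Cast, Capn10), 0 without the filter, 2 with probes above background on all arrays or 1 probe per gene (Cast, Capn10), 6 with array weights (Capn1 at -0.86 among them), 3 with the mean of a gene's probes, 0 with scan as a random block (consensus correlation 0.57), 4 with scan day as a block, and 0 to 4 on leaving out 1 array. The 4970 probes called over the whole array were 1914 with normexp (offset 50), 2071 without the filter, 15096 with array weights, 3312 and 3304 in the fits by gene (brightest probe, mean of probes), 669 with scan as a random block and 9250 with scan day as a block, and ran from 1923 to 9250 without 1 array. Scaling moved the median of all probes from -0.08 to -0.11 (median), -0.04 (quantile) and 0.02 (normexp).

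Values near 0 changed sign: Capn1 was 0.19 with normexp and 0.15 with scan as a random block, Capn7 was 0.05 with array weights and 0.07 with scan day as a block, and Capn3 minus Cast was -0.54 with normexp, -0.05 with the mean of probes and -0.03 after quantile normalization. Without 1 array, Capn1 lay between -0.49 and 0.24, Capn5 between -0.29 and 0.15, Capn7 between -0.56 and 0.07, and Capn3 minus Cast between -0.98 and 0.82. Capns1 minus Cast was -0.08 with normexp. The cause of these changes was not tested.

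With the replicate number as a block (numbers 1 and 2 are in both groups), 9382 probes and 4 members (Capns1, Cast, Capn10, Capn15) were called, and Capn7 was 0.13. Deviations of same-numbered arrays correlated at 0.15 and -0.18, so the numbers were not taken to pair the arrays. Counts for the 5 gene lists were run under these alternatives after seeing the data.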

Other observations

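Among the listed genes that were not tested, a few were detected in 1 genotype alone; they were picked after their values were seen. Stfa3, a stefin that inhibits cysteine proteases, was well above background on 2 knock-in and no wild type arrays. Ctsk, cathepsin K, was so on 1 knock-in array alone. Slc8a1, a sodium and calcium exchanger, was so on 2 wild type arrays and no knock-in array.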
